A study of Mus musculus with 8 samples.

Results

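The genes described here encode the light chains of the muscle myosin motor and the proteins that bind or modify myosin in the thick filament, namely Myl1, Mylpf, Myl2, Myl3, Myl6b, Mybpc1, Mybpc2, Mybph, Mylk2 and Myom3. They were chosen by name, and their probes were found by mapping the accession that the scanner files give for each probe to a gene symbol. The 10 genes had 12 probes of the 55681 on the array, with 2 probes each for Myl1 and Mybpc1, against 20972 genes that could be named in all. All 12 probes were well above background in 8 of 8 samples, with 0 saturated and 0 outlier spots, so no member was lost to the filter on dim probes.

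RNA came from the white portion of the gastrocnemius, a fast calf muscle, of 4 mice labelled Homozygous Mutant PUS1 and 4 mice labelled Wild Type PUS1. Pus1 encodes pseudouridine synthase 1, which modifies uridines in tRNA. All animals were untreated, 14 to 16 weeks old, and of C57BL/6J stock after 5 generations of backcrossing. The labels do not describe the mutant allele. Each of 4 arrays of 2 colours paired 1 mutant with 1 wild type mouse, both male or both female, giving pairs 1 and 2 of males and pairs 3 and 4 of females, with the mutant in Cy5 on arrays 1 and 3 and in Cy3 on arrays 2 and 4. All arrays lay on 1 slide.

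Each skeletal myosin motor consists of heavy chains whose lever arms carry an essential and a regulatory light chain. Fast and slow fibres use different genes for these chains, and the slow forms are shared with the ventricle of the heart. Myosin-binding proteins C and H lie along the thick filament and tune how myosin heads reach actin, myomesins cross-link thick filaments at the M-band, and the skeletal myosin light chain kinase phosphorylates the fast regulatory chain to strengthen contraction.

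The promoters of 5 members that the results below turn on are shown, to be read side by side. They belong to the slow genes Myl2 and Myl3, the M-band gene Myom3, the fast gene Mylpf and Mybph, the member called between the sexes. Each is the RefSeq sequence of build GRCm38.p6 from 250 bases before to 50 bases after the start of the gene, read 5′ to 3′ on the plus strand. Capitals mark matches, on either strand, to 3 motifs: the E-box (CANNTG, bound by myogenic factors such as MyoD), the CArG box (bound by serum response factor) and the MEF2 site (bound by MEF2 factors). The sequences lie at chr5:122092474-122092773 (Myl2), chr9:110763428-110763727 (Myl3), chr4:135759465-135759764 (Myom3), chr7:127211358-127211657 (Mylpf) and chr1:134193198-134193497 (Mybph).
Myl2: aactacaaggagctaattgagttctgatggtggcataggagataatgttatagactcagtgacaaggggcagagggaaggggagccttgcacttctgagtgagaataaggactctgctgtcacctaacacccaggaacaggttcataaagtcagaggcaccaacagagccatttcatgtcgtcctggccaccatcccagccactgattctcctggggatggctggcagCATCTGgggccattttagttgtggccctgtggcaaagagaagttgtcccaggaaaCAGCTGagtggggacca
Myl3: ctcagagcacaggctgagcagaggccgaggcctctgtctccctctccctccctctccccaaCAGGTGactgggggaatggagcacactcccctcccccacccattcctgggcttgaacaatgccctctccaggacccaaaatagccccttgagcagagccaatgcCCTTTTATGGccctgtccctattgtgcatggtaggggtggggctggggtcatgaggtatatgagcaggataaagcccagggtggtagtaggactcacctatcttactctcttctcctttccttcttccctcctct
Myom3: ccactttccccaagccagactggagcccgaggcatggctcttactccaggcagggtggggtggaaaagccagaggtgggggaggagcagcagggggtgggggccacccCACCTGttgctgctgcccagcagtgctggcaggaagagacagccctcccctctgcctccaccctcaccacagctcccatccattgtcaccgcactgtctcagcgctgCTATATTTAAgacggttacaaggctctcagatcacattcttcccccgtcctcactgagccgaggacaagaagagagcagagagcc
Mylpf: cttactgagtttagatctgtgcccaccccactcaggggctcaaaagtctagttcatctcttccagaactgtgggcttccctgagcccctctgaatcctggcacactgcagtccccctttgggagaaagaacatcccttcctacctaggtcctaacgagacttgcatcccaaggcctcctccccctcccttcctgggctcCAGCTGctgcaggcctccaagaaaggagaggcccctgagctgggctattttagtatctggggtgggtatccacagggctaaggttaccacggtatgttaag
Mybph: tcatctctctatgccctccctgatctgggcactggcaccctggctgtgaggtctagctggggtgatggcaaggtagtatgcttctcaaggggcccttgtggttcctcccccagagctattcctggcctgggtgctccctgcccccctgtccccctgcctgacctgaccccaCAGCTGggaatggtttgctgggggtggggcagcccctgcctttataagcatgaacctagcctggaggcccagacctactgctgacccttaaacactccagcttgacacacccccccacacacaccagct

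The table held entries for 9 of the 10 members, 10 entries in all. Of these, 1 entry, that of Myl3, held a CArG box, at −85 from the start, and 1 entry, that of Myom3, held a MEF2 site, at −35. Among all 32851 promoters of the same length, 1.63% held a CArG box and 3.19% a MEF2 site. Every member's entry held at least 1 E-box, a motif present in 72.3% of all promoters. The motifs did not overlap one another, and a match is only a string of letters in this window.

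Pus1 itself had normalized log2 levels of 6.75, 6.91, 6.49 and 6.85 in mutants 1 to 4, against 8.06, 8.36, 8.15 and 8.29 in wild types 1 to 4. Its log2 ratio was −1.46 (SE 0.10), which did not pass adjustment over all probes (limma, adjusted p = 0.0786). The groups were separate, as they were for 1.27% of tested probes. The Pus1 probe exceeded background in 4 of 8 samples, the fewest that the filter on dim probes admits. Wild types held the higher levels, so the probe may have passed the filter only through them. The remaining levels were not well above background. In every sample all 5 fast fibre markers and all 5 slow fibre markers were above background, while of 5 heart markers Myh6 was above it in 8 samples, Nppa in 3, and Myl7, Nppb and Tnni3 in 0, with summed intensities of 71.2 to 125 units in mutants and 86.2 to 146 units in wild types. The summed processed intensity of the slow fibre markers was 10620, 25920, 10550 and 10640 units in mutants 1 to 4, against 45670, 25960, 25000 and 54010 units in wild types 1 to 4. Mb had the highest mean level of these markers (14.11 in mutants, 15.08 in wild types) and weighs heavily in the sums. The near-equal sums of pair 2 hide opposite ratios: Mb was at −0.49, while Myh7, Tnnt1, Tnni1 and Tnnc1 were at 5.06, 3.15, 1.49 and 1.40 (log2). Fibroblast marker sums were 48460, 25670, 27360 and 28870 units in mutants 1 to 4. Those of wild types ranged from 20310 to 32190 units. Blood marker sums were 92640, 50370, 66400 and 297400 units in mutants 1 to 4, and 31470 to 99290 units in wild types. The high ends thus came from 1 animal each. Mutant 1 also had the highest fat, endothelium and macrophage marker sums, at 8703, 5067 and 1632 units, and the lowest smooth muscle sum, at 21850 units. The part of these markers in the results below was not tested.

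In the mutant, no member differed from wild type after adjustment over all 23098 tested probes: 0 of 10 members had an adjusted p under 0.05, where 0% of all tested probes did. The slow light chains Myl3 and Myl2 and the M-band gene Myom3 had the largest ratios among the members, between −1.18 and −1.68 on the log2 scale, with wide spread between pairs. The fast light chains, the fast binding protein Mybpc2 and the kinase Mylk2 had ratios between −0.052 and 0.30. At an unadjusted p under 0.05, 2 of 10 members differed, Myl3 and Myom3, where 3.35% of tested probes did, 1.86% with a lower level in mutants. In 0 members did the mutant and wild type groups fail to overlap, against 1.27% of tested probes. Ratios are log2 mutant over wild type from a limma fit with a dye term, with the array as the pair. Levels are log2 intensities that cannot be compared between probes. They keep each probe's dye effect, so levels of animals in different dyes mix dye with animal. Mutants 1 and 3 and wild types 2 and 4 were in Cy5. The fitted dye terms of the members, Cy5 minus Cy3, ranged from −1.33 (Myl2) to 0.59 (Myl1).

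**Figure D1:**
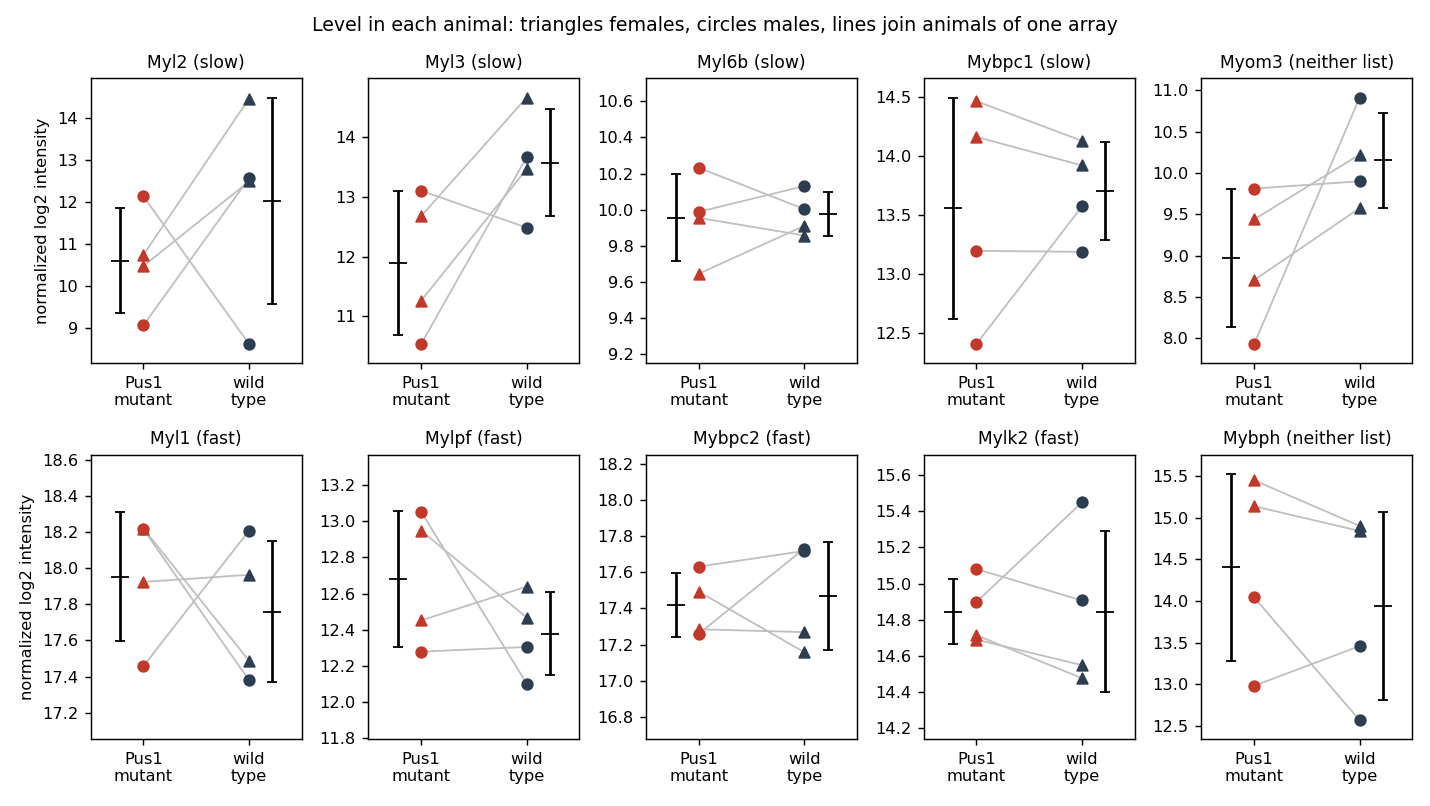
Normalized log2 levels of the 10 members, 1 panel per gene, in mutants (left) and wild types (right); triangles are females, circles are males, lines join the 2 animals of an array, and bars show mean ± SD (n = 4 per group). The mutant and wild type points overlap in every panel, and the widest bars are those of the wild types of Myl2, with an SD of 2.45. The levels keep the dye effect.

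Myl3 encodes the slow and ventricular essential light chain. Its level was 10.53, 13.11, 11.26 and 12.68 in mutants 1 to 4, against 13.67, 12.49, 13.47 and 14.67 in wild types 1 to 4. Mutants 1 and 3 lay below every wild type, mutants 2 and 4 lay above the lowest wild type, and pair 2 ran against the other pairs. The level averaged 11.89 ± 1.20 in mutants and 13.57 ± 0.90 in wild types (SD, n = 4 each). The log2 ratio was −1.68 (SE 0.41, 95% interval −2.69 to −0.67), or 0.312-fold, with an unadjusted p of 0.00669 and an adjusted p of 0.9998 (limma). By size it ranked 4 among the 23098 probes, and by p it ranked 120. With each array centred on its median in place of loess, the ratio was −1.80 and passed the threshold (adjusted p = 0.00872), and leaving out 1 pair gave −2.33 (without pair 2) to −1.03 (without pair 4), with adjusted p of 0.0917 or above. Its promoter, shown above, was the member promoter with a CArG box.

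Myl2 encodes the slow and ventricular regulatory light chain. Its level was 9.08, 12.14, 10.48 and 10.75 in mutants 1 to 4, against 12.57, 8.63, 12.49 and 14.47 in wild types 1 to 4. Wild type 2 held the lowest value of all 8 animals and wild type 4 the highest, and the mutants lay between them. The pair ratios were −3.50, 3.51, −2.01 and −3.71 for pairs 1 to 4, so pair 2 differed as strongly in one direction as pair 1 did in the other. The level averaged 10.61 ± 1.26 in mutants and 12.04 ± 2.45 in wild types (SD, n = 4 each), and the wild type SD ranked 7 among the 23098 probes. The log2 ratio was −1.43 (SE 1.07, 95% interval −4.06 to 1.21, limma adjusted p = 0.9998). The interval spans both directions. Without pair 4 the fitted ratio was 0.38 and without pair 2 it was −3.23. Through the dye term, a pair left alone in its dye orientation counts as much as the other remaining pairs together. Without pair 4 that was pair 2, so the positive fit arose although pairs 1 and 3 were negative. Myl2 lies on chromosome 5 within 20 Mb of Pus1, though not within 10 Mb; whether linked sequence carried with the mutant allele has a part was not tested. In bulk muscle, fewer slow fibres and less of a transcript per slow fibre cannot be told apart.

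Myl6b encodes an essential light chain of slow and developing muscle and of non-muscle cells, and it differed little between genotypes. It averaged 9.96 ± 0.24 in mutants and 9.98 ± 0.12 in wild types (SD, n = 4 each), with pair ratios of −0.14, 0.23, −0.27 and 0.10. The log2 ratio of −0.020 had a 95% interval of −0.25 to 0.21 (SE 0.09, limma). The interval leaves out a ratio of the size fitted for Myl3.

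Mybpc1 encodes the slow form of myosin-binding protein C. It had a level of 12.41, 13.20, 14.46 and 14.16 in mutants 1 to 4, against 13.57, 13.19, 14.13 and 13.92 in wild types 1 to 4. Mutant 1 was the lowest animal and the other 3 pairs differed by at most 0.34. The log2 ratio was −0.15 (SE 0.24, 95% interval −0.73 to 0.44), and a second probe for another transcript gave −0.14 (SE 0.25). Without pair 1 the ratio was 0.23. Its genotype difference was 0.87 higher in females than in males on the log2 scale (SE 0.34, unadjusted p = 0.0469, adjusted p = 0.99996, limma interaction term). This was 1 of 10 members at that unadjusted threshold, against 2.19% of tested probes, and 0 of 10 after adjustment, against 0%.

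The 4 slow members thus comprised Myl2 and Myl3, with large negative ratios and wide intervals, and Myl6b and Mybpc1, with ratios near 0. Their median log2 ratio was −0.79 and all 4 ratios were negative, beside a median of 0.0013 over all tested probes, of which 11449 were negative and 11649 positive. The slow median was −2.15, 0.42, −1.14 and −0.95 in pairs 1 to 4. It stayed negative when any pair was left out, between −1.21 and −0.095, the value nearest 0 being that without pair 4.

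Myom3, a myomesin of the M-band found mainly in type IIA fibres, was the 1 member with the same sign in all 4 pairs, against 9.93% of tested probes, or 5.1% with the lower level in mutants. Its level was 7.93, 9.81, 8.71 and 9.44 in mutants 1 to 4, against 10.91, 9.90, 9.57 and 10.22 in wild types 1 to 4. Mutant 2 lay between the wild types and the other 3 mutants lay below all of them. The pair ratios were −2.98, −0.087, −0.87 and −0.78. The level averaged 8.97 ± 0.83 in mutants and 10.15 ± 0.57 in wild types (SD, n = 4 each). The log2 ratio was −1.18 (SE 0.33, 95% interval −2.0 to −0.36), with an unadjusted p of 0.0126 and an adjusted p of 0.9998 (limma). Mutant 1 held the dimmest member spot of all samples, at 2.59-fold its local background. Without pair 1 the ratio was −0.65, and without pair 3 it was −1.71 with an adjusted p of 0.0104 (limma). In the run without pair 3, pair 1 was the only one with the mutant in Cy5. The dye term then took up its gap to pairs 2 and 4, so that gap did not count as spread. In that run 245 of 23098 probes passed.

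**Figure D2:**
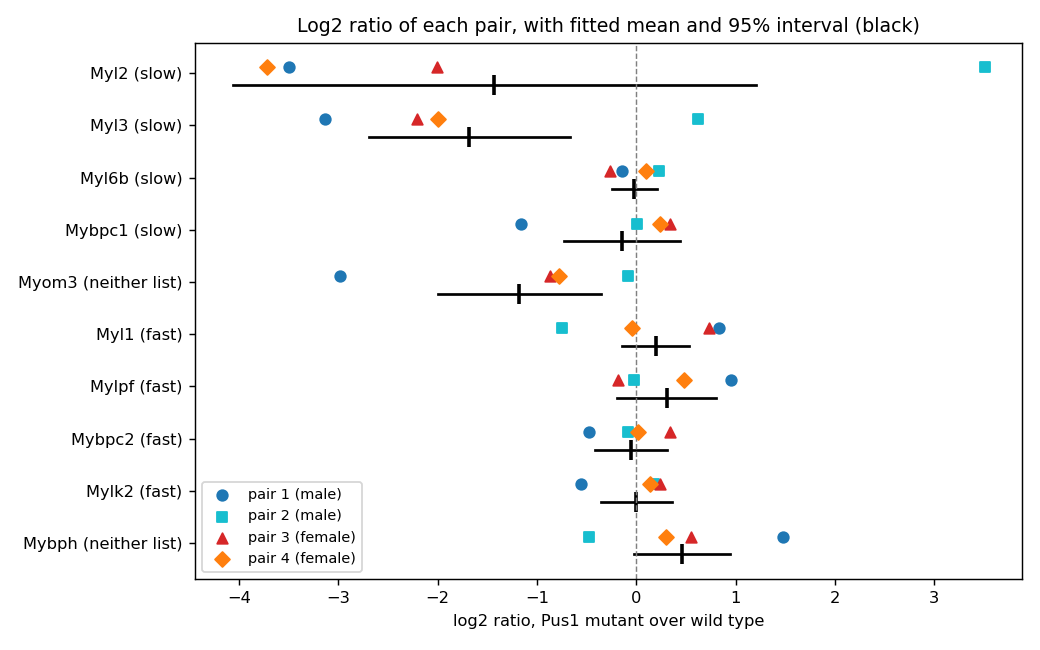
Log2 ratios of mutant over wild type for the 10 members; each marker is 1 array pair (pairs 1 and 2 male, 3 and 4 female) and the black bar is the fitted ratio with its 95% interval from limma. Pair 2 lies opposite to the other pairs for Myl2 and Myl3, while all 4 pairs of Myom3 lie below 0.

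Among the fast members, Myl1 encodes the essential light chains of fast fibres, made as a long and a short form from separate promoters. Its brighter probe had levels of 18.21, 17.46, 18.22 and 17.92 in mutants 1 to 4, against 17.38, 18.21, 17.49 and 17.96 in wild types 1 to 4. In all 4 pairs the animal labelled with Cy5 was the higher one, and the dye term was 0.59 (unadjusted p = 0.00524, limma). The log2 ratio was 0.19 (SE 0.14, 95% interval −0.14 to 0.53). Leaving out 1 pair gave 0.017 (without pair 4) to 0.37 (without pair 2). The second Myl1 probe gave 0.048 (SE 0.13).

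Mylpf encodes the fast regulatory light chain, the counterpart of Myl2. It had levels of 13.05, 12.28, 12.45 and 12.95 in mutants 1 to 4, against 12.10, 12.30, 12.64 and 12.47 in wild types 1 to 4. Mutants 1 and 4 lay above every wild type, and mutants 2 and 3 lay among them. The log2 ratio was 0.30 (SE 0.20, 95% interval −0.19 to 0.80). Without pair 1 it was 0.020, and without pair 3 it was 0.59.

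Mybpc2, the fast form of myosin-binding protein C, averaged 17.42 ± 0.18 in mutants and 17.47 ± 0.30 in wild types (SD, n = 4 each). Its log2 ratio was −0.052 (SE 0.15, 95% interval −0.41 to 0.31), and it was positive, at 0.15, without pair 1. Mylk2, the skeletal myosin light chain kinase, averaged 14.85 ± 0.18 in mutants and 14.85 ± 0.44 in wild types (SD, n = 4 each). Its log2 ratio was 0.00015 (95% interval −0.36 to 0.36), and it had no settled sign across alternatives. The 4 fast members had a median of 0.097, and 3 of the 4 ratios were positive. The median was 3e-04 with median centring, 0.0115 without pair 3 and 0.0126 without pair 4. Their median was 0.18, −0.056, 0.29 and 0.079 in pairs 1 to 4. The slow regulatory chain Myl2 thus spread over several log2 units among animals, where each of the 4 fast members varied by less than 1. Not all slow members spread so widely, as Myl6b ran only from 9.65 to 10.23. All these levels keep the dye effect.

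Mybph, myosin-binding protein H, which binds thick filaments in a subset of fast fibres, had levels of 14.04, 12.98, 15.45 and 15.14 in mutants 1 to 4, against 12.57, 13.46, 14.90 and 14.84 in wild types 1 to 4. Mutants 3 and 4 and wild types 3 and 4, the females, held the 4 highest values, and the genotypes overlapped. The log2 ratio of mutant over wild type was 0.46 (SE 0.20, 95% interval −0.021 to 0.94, unadjusted p = 0.0579, limma). Leaving out pair 1 gave 0.23, leaving out pair 4 gave 0.27 and leaving out pair 3 gave 0.69. Its dye term was 0.55 (unadjusted p = 0.0314), and with Myl1 it was 1 of 2 members past that unadjusted threshold for dye, against 7.42% of tested probes. Myl2, Myl3 and Myom3 had dye terms larger in size but less precise, at −1.33, −0.99 and −0.74 (unadjusted p = 0.264, 0.0528 and 0.0682, limma).

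Between the sexes, 1 of 10 members passed the test over all probes, where 1.38% of tested probes did, and 0.515% did so with a higher level in females. That member was Mybph. It averaged 15.08 ± 0.28 in females and 13.26 ± 0.63 in males (SD, n = 4 each), and every female lay above every male. The log2 difference, female minus male, was 1.82 (SE 0.21, 95% interval 1.32 to 2.31, limma adjusted p = 0.0120), or 3.53-fold. It was 1.78 within mutants and 1.86 within wild types. The call was lost without pair 3 (1.73, adjusted p = 0.0861) and without pair 4 (1.91, adjusted p = 0.207). Each array held animals of 1 sex, so the array entered the fit as a random block. The sex difference thus rests on 2 arrays per sex and cannot be fully told apart from differences between arrays.

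Mybpc1 was likewise higher in every female than in every male. The log2 difference was 1.08 (SE 0.26, limma adjusted p = 0.0861), and it was 1.51 within mutants and 0.64 within wild types. The second probe gave 1.10. It passed the threshold without pair 1 (adjusted p = 0.0474) and without pair 2 (adjusted p = 0.0314), but not without pair 3 (adjusted p = 0.110) or without pair 4 (adjusted p = 0.686). Mylk2 and Myl6b were separate the other way, with differences of −0.48 (SE 0.16, adjusted p = 0.138) and −0.25 (SE 0.10, adjusted p = 0.200). In all, the sexes did not overlap for 4 of 10 members, against 17.3% of tested probes, and 4 of 10 had an unadjusted p under 0.05, against 22.9%. Myl2, at 1.44 (SE 1.18), had an interval that spans both directions, as did Myl3, Myom3, Myl1, Mylpf and Mybpc2. Fibroblast marker sums were 20310 to 28870 units in females and 25670 to 48460 units in males, the highest in mutant 1. Blood marker sums were 31470 to 297400 units in females, the highest in mutant 4, and 50370 to 92640 units in males. The part of these markers was not tested.

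**Figure D3:**
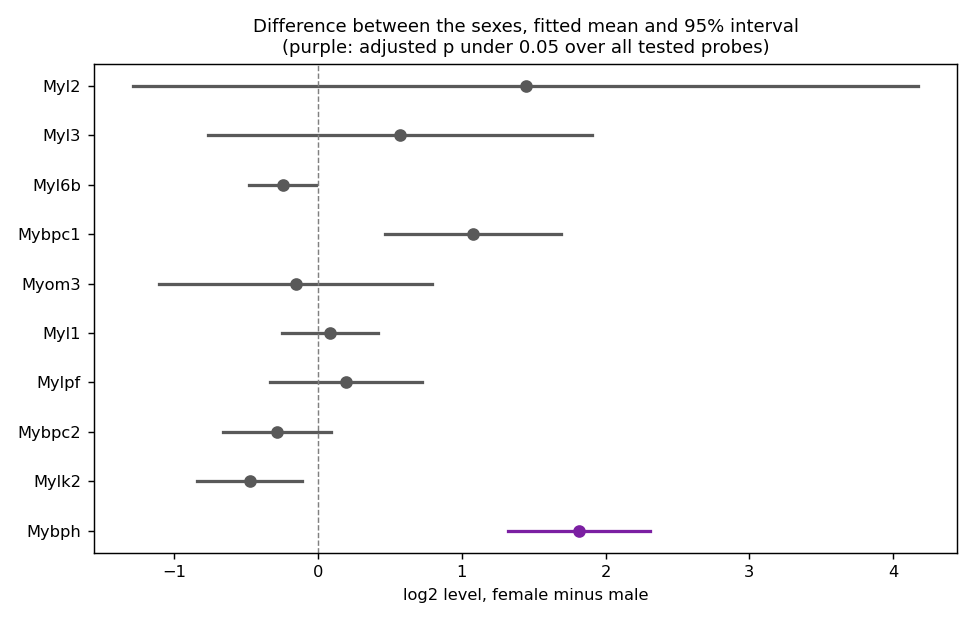
Fitted log2 difference between females and males for each member with its 95% interval, n = 4 animals per sex; purple marks an adjusted p under 0.05 over all tested probes. Mybph stands at 1.82 and Mybpc1 at 1.08, while Mylk2 and Myl6b lie below 0.

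The rest of the slow contractile machinery was listed to show the surroundings of the slow light chains. Of 13 listed genes, 12 were tested, and 0 passed the adjusted threshold; 11 had negative and 1 positive ratios, with a median of −0.88. Pln, the inhibitor of the slow calcium pump, was not tested because it was above background in 0 samples. Myoz2, a slow-fibre calsarcin of the Z-disc, had a log2 ratio of −1.11 (SE 0.39, unadjusted p = 0.0285), and Ankrd2, a stretch-responsive ankyrin protein, −0.73 (SE 0.32). Actc1, cardiac actin, went the other way at 0.88 (SE 0.26, unadjusted p = 0.0147, limma) and was positive in all 4 pairs. The list median was −1.31, 1.23, −0.93 and −1.93 in pairs 1 to 4, so pair 2 again opposed the others, as it did for Myl2 and Myl3.

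Of 13 other fast genes, all tested, 4 had negative and 9 positive ratios, with a median of 0.040 and 0 calls. At an unadjusted p under 0.05 (limma), 3 of the 13 differed, all lower in mutants, where 1.86% of tested probes were lower. Of the 12 other slow genes 2 did, 1 lower and 1 higher. Myh1, the heavy chain of type IIX fibres, had a log2 ratio of −1.29 (SE 0.25, unadjusted p = 0.00226, limma), and Myh2, the heavy chain of type IIA fibres, −1.48 (SE 0.43, unadjusted p = 0.0140). Myh1 was lower in the mutant in all 4 pairs. The pair ratios of Myh2 were uneven, at −4.43, −0.14, −1.54 and 0.17 in pairs 1 to 4. Myoz1, a fast-fibre calsarcin, stood at 0.19 (SE 0.11) and Casq1, the fast calsequestrin that stores calcium, at 0.069 (SE 0.11).

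Of 17 other light chain genes, light chain kinases and phosphatase subunits, 16 were on the array and 13 were tested, of which 3 had negative and 10 positive ratios, with a median of 0.052 and 0 calls. Myl6, the smooth muscle and non-muscle essential light chain, was at 0.18 (SE 0.09), and Myl12b, a non-muscle regulatory chain, at 0.12 (SE 0.09). The phosphatase subunits Ppp1r12c and Ppp1r14c had the smallest p among the negative ones, at −0.097 and −0.084. Of 13 other thick filament and M-band genes, 11 were tested, with 7 negative and 4 positive ratios and a median of −0.026. Hsp90aa1 and Unc45b, chaperones that fold the myosin motor, were at 0.36 (unadjusted p = 0.0478, limma) and 0.27, while titin (Ttn) and the M-band protein Myom2 were at −0.28 and −0.11. Mybpc3 and Mybphl, the cardiac relatives of the binding proteins, were above background in 0 samples.

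**Figure D4:**
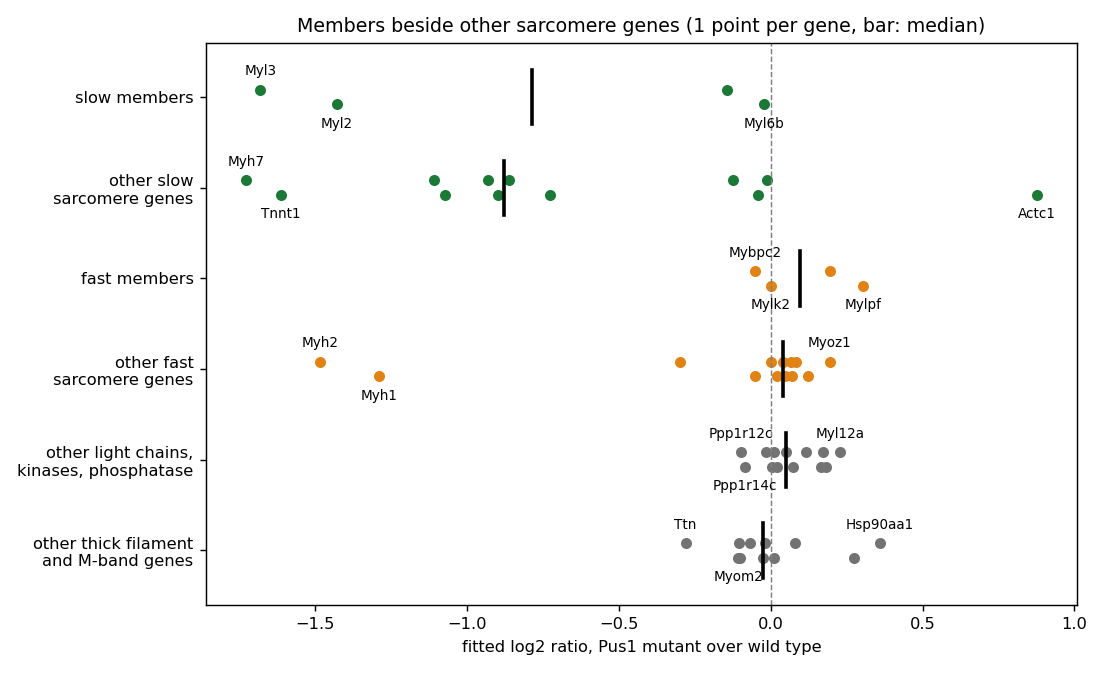
Log2 ratios of mutant over wild type for each tested gene of 6 lists, namely the slow and fast members and the other slow, fast, light chain and thick filament genes; each point is 1 gene and each bar the list's median. Of the other slow genes, 11 of 12 lie below 0, and the medians of the fast and remaining lists lie between −0.026 and 0.097.

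Genes were also ranked by how closely their levels, here with the dye effect removed, followed each member over the 8 animals, among 11892 other named genes. The 2 animals of a pair share an array, so the 8 points are not independent, and the correlations are descriptions. Myl2 was most like the slow heavy chain Myh7 (Pearson r = 0.993) and the slow troponin T gene Tnnt1 (r = 0.988), followed by Fam205a2, Tnni1 and Tnnc1. In Myl2, 4 of the 5 nearest genes were thus slow sarcomere genes. Myl3 was most like Ppp4r1 (r = 0.968), with no sarcomere gene among its 5 nearest, and its r with Myl2 was 0.81. With the other slow sarcomere genes its r ranged from −0.40 (Actc1) to 0.925 (Myoz2), and it was 0.89 with Tnni1. Myom3 was nearest to Phactr4 (r = 0.975) and Cdk18 (r = 0.974), with Ankrd2 the third nearest (r = 0.970). Mybpc1 was nearest to Vgll2, a cofactor of TEAD factors in muscle (r = 0.992), and Mybph to Slc39a13 (r = 0.989), a zinc transporter, and to Chrna1 (r = 0.988), which encodes a subunit of the muscle acetylcholine receptor. Among the fast members, Myl1 was nearest to Ptn (r = 0.992), Mylpf to Car2 (r = 0.982), Mybpc2 to Btbd11 (r = 0.976) and Mylk2 to Birc3 (r = 0.995). Myl6b was nearest to Ppp2cb (r = 0.974).

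**Figure D5:**
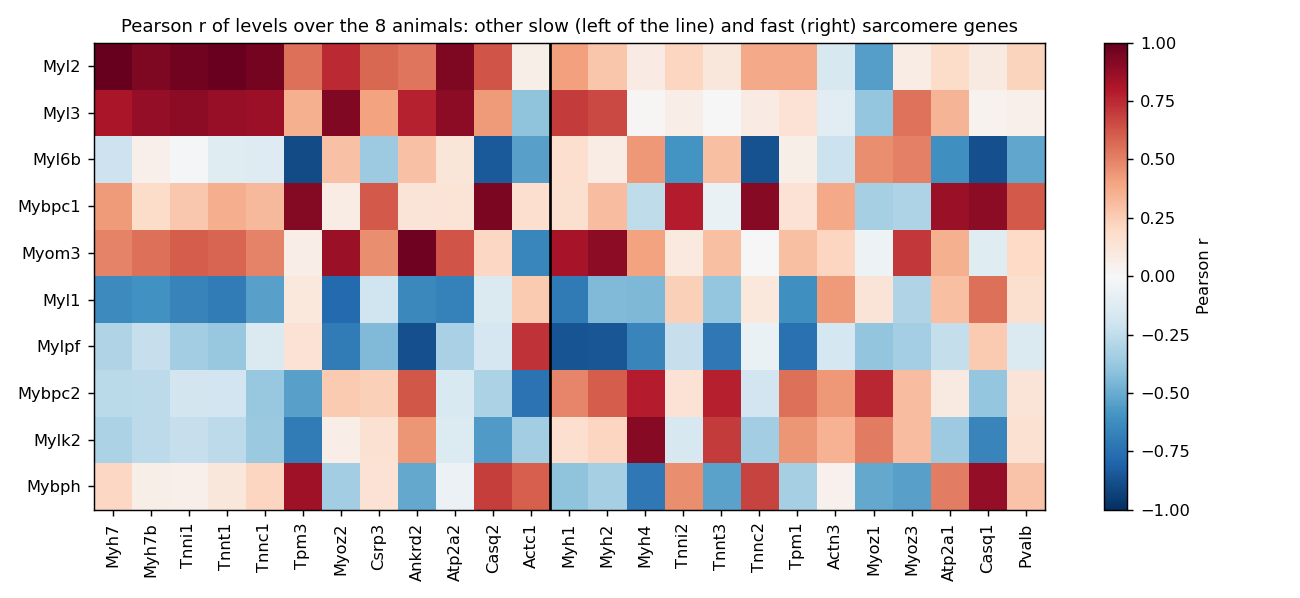
Pearson correlation of the log2 level of each member (rows) with the tested genes of the other slow and fast sarcomere lists (columns, split by a line) over the 8 animals, as a colour scale from −1 to 1. Myl2 is darkest with Myh7 (0.993) and Tnnt1 (0.988), Mybpc1 with Casq2 (0.94) and Mybph with Casq1 (0.88). The dye effect was removed from these levels.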

How the data were processed

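The scanner files deposited by the authors hold spot intensity values, written by Agilent Feature Extraction 10.7.3.1 per the submitters' processing notes, as median spot and local background signals without subtraction, and processed intensity values that per the file headers were background-subtracted and dye-normalized. The deposited files also hold other values per spot, flags that per the file headers mark spots as well above background, saturated or outlying. The authors' deposited series table holds log2 values as judged from their range; every probe has a median of 0 across the 8 samples, and the sources used here do not give its normalization. Its column medians were −0.0183 (mutant 3), 0.0335 (mutant 1) and values between them. Set against differences of the scanner's log2 processed signals within each array, its differences had the same direction, with slopes of 0.848 to 1.12.

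Normexp (offset 50) served as background correction on median signals, where mean signals had been planned, because medians are in the files used. Arrays were normalized by loess with control and outlier spots at weight 0, and spots of a probe were averaged. A probe was tested where 4 or more of 8 samples were well above background, which held for 23098. Log2 ratios of mutant over wild type were fitted in limma 3.58.1 (R 4.3.3) with a dye term. Pairing comes from the shared array. The 2 animals of a pair deviated from their group means with correlations of 0.659, 0.278, 0.0594 and 0.636 in pairs 1 to 4. Both animals of a pair also share their sex, which was left in these deviations, so the correlations do not isolate the array. Sexes were compared on separate channels after Aquantile scaling, with genotype and dye terms and the array as a random block (intraspot correlation 0.187). P-values were adjusted by Benjamini-Hochberg over all tested probes, at a threshold of 0.05. The fits were also run on simulated data that used the dye terms and residual spread fitted here. Probes were named by RefSeq accession through a GRCm38.p6 gene table, while the file headers name another build, so that table gave names and neighbours only. Where a gene had several probes, the one with the highest mean level stands for it. The members and lists were chosen with earlier results of these data known. From each list, the 2 genes with the smallest unadjusted p in each direction are named, and for each member the 5 nearest genes by Pearson r were taken. The labels say that animals were separate individuals. The number of arrays limits the precision.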

Additional observations from a re-analysis of the deposited data

How the results depend on the processing

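The number of probes with an adjusted p under 0.05 between mutant and wild type was 0, and with 4 pairs it depended on the processing: it was 23 with median centring (2 higher and 21 lower in mutants), 5 with no filter on dim probes, 2 with no dye term, 13 with separate channels, and 0 to 245 with 1 pair left out, the highest without pair 3 and 5 without pair 1. The animals of a pair share an array. A fit of separate channels with no replicate block for this pairing called 3 probes, and it changed no call of a member for genotype. The interaction with sex, at 0 probes, gave 22 with median centring and 38 with no filter. The 319 probes that differed between sexes became 554 with no filter, 850 with no replicate block and 16 to 3442 with 1 pair left out (32 without pair 3, 16 without pair 4, 3442 without pair 2); the intraspot correlation of all arrays was used where 3 arrays gave none. Without the block Mybpc1 passed the sex threshold as well (adjusted p = 0.0480). The cause of these shifts was not tested. Member spots lay at 2.59-fold (Myom3, mutant 1) to 4448-fold their local background. The median of the slow members was negative and that of the fast members positive in every alternative run, though the fast median was 3e-04 with median centring and as low as 0.0115 with 1 pair left out. The runs with another filter on dim probes, no dye term or separate channels could not change either median. All member probes passed each filter and the dyes were balanced, so these runs repeated the main ratios of the members. Ratios near 0 changed sign: Mylk2 was −0.0015 with no background correction and −0.0864 with median centring, and Mybpc2 was 0.0305 in the deposited table. With 1 pair left out, Mylk2 ranged from −0.197 to 0.198 (−0.0080 without pair 2), Mybpc2 from −0.254 to 0.150, Mybpc1 from −0.521 to 0.230, Myl6b from −0.0531 to 0.0125 (0.0104 without pair 3) and Myl2 from −3.23 to 0.377. In these genotype fits the dye term gave the pair left alone in its dye orientation as much weight as the other remaining pairs together. The female minus male difference ranged from −0.499 to 0.192 for Myom3 (0.0629 without pair 2) and from −0.0836 to 1.23 for Myl3.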

Other observations

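Between the sexes, 1 other thick filament gene passed the test. Obsl1, an obscurin-like protein of the M-band, averaged 12.27 ± 0.17 in females and 11.42 ± 0.18 in males (SD, n = 4 each), a log2 difference of 0.85 (SE 0.14, limma adjusted p = 0.0370), beside 1.38% of all tested probes called. Its log2 ratio of mutant over wild type was 0.08 (SE 0.12). The following genes were chosen after their values were seen. Myl4, the atrial and embryonic essential light chain, averaged 11.44 ± 0.07 in females and 10.77 ± 0.29 in males (SD, n = 4 each), a difference of 0.66 that did not pass the threshold (limma adjusted p = 0.0801). Casq2, the slow and cardiac calsequestrin, and Tpm3, the slow tropomyosin, had differences of 0.59 (adjusted p = 0.101) and 0.43 (adjusted p = 0.0792). Of the developmental sarcomere genes Myh3, Myh8 and Tnnt2, 0 were called for genotype, with log2 ratios of 0.095, −0.087 and −0.17.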
